A study of Homo sapiens with 6 samples.

Results

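The collagen chain genes encode the alpha chains that wind in threes into the collagen triple helix. They were taken as the protein-coding genes of chromosomes 1 to 22 whose symbol is COL, a number, A and a number. This rule gave 42 genes of 19126. Each gene was examined over its span in the RefSeq annotation of GRCh38.p14 plus 5 kb on each side, 6809 kb in all after merging. Some windows also overlap other genes, for example WDR75 at COL5A2, SLK at COL17A1, NT5DC1 at COL10A1, and OGFR and TCFL5 at COL9A3. Regions there were counted for the collagen gene. The series mapped NONO, H3T11ph and H3K27ac by CUT&Tag, a method that cuts out and sequences the DNA next to a bound antibody. The cells were MDA-MB-231, an established triple-negative breast cancer line. NONO is an RNA- and DNA-binding nuclear protein, H3T11ph is histone H3 phosphorylated at threonine 11, and H3K27ac is histone H3 acetylated at lysine 27, a mark of active promoters and enhancers. PKM2, a pyruvate kinase isoform, is the histone kinase that the study connects with H3T11ph. NONO was mapped in NC cells (genotype WT) and in NONO-KD cells (genotype NONO knockdown). H3T11ph and H3K27ac were each mapped in NC cells (WT) and in PKM2-KD cells (PKM2 knockdown). Which knockdown construct served for CUT&Tag is not given in the sources used here. This made 6 libraries in 6 groups of 1, so nothing below was tested between conditions, and intervals cover counting error only.

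Fibrillar collagens (types I, II, III, V, XI, XXIV and XXVII) form the banded fibers of connective tissue, and type IV chains form the network of basement membranes. Other types decorate fibrils, anchor basement membranes, build beaded filaments or span the plasma membrane. Fibroblasts are the main source of type I and III collagen in breast tumors, and epithelial cells make basement membrane collagen.

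Each deposited list gives the regions called as enriched in 1 library, 1 region to a row, and acetylated bp means the bases of a gene window that H3K27ac regions cover. The lists did not have 1 form. The share of regions at exactly the minimum width was 94.5% for NONO in NC (269 bp) and 79.1% for H3K27ac in NC (112 bp), but 1.19% to 2.06% in the remaining lists. A region is called wide here when it measures 2 or more times the minimum of its own list. H3K27ac levels of genes are given over all regions, with those over wide regions beside them. The difference between the calling of the lists and the difference between NC and knockdown cannot be told apart. Read totals were not given in the lists. Of the markers of a mesenchymal or basal cell, VIM, CD44, CAV1, AXL, FOSL1 and EGFR each had at least 2157 bp in wide H3K27ac regions in NC, with 74746 bp in all and 95952 bp in PKM2-KD. The luminal or epithelial markers ESR1, GATA3, FOXA1, CDH1, EPCAM and ERBB3 had 6605 bp and 11232 bp in all. EPCAM had 0 in wide regions in both lists, as CDH1 did in NC, whereas GATA3 had 4419 bp in NC and 4210 bp in PKM2-KD.

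The promoters of 5 genes are shown because their starts differed in H3K27ac, from covered in both lists to covered in neither. Promoter sequences (250 bases before to 50 bases after the start) were available for 30 of the 42 genes from RefSeq, GRCh38.p14. The genes without an entry were COL1A1, COL1A2, COL2A1, COL3A1, COL5A2, COL6A1, COL6A5, COL8A1, COL9A3, COL14A1, COL20A1 and COL22A1. Each sequence runs 5′ to 3′ on the strand of the gene. Capitals mark matches on either strand to the GC box, spelled GGGCGG. They also mark matches to the CCAAT box, which its name spells, and to the TATA box, searched as TATAAA. The AP-1 motif was searched as TGANTCA and matched none of the 5. The motifs do not overlap one another in these sequences.
COL12A1, chr6:75206004-75206303, minus strand: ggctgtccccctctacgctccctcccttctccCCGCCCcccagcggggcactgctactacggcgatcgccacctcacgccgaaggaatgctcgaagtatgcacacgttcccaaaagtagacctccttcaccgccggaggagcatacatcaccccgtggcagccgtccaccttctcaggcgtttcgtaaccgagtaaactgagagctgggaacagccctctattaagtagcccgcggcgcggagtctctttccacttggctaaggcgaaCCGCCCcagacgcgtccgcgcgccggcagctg
COL13A1, chr10:69801656-69801955, plus strand: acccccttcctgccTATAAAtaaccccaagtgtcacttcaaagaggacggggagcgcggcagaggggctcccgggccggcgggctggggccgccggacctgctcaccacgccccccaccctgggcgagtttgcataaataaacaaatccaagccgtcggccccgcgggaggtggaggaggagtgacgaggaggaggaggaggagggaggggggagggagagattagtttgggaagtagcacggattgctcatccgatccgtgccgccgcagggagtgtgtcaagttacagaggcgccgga
COL4A2, chr13:110307034-110307333, plus strand: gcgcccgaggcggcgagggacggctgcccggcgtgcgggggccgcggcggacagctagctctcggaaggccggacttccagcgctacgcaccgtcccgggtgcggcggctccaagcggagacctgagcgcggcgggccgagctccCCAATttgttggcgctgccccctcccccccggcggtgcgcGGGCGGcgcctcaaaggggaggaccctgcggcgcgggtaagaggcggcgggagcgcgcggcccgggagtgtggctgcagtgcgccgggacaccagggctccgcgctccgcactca
COL7A1, chr3:48595280-48595579, minus strand: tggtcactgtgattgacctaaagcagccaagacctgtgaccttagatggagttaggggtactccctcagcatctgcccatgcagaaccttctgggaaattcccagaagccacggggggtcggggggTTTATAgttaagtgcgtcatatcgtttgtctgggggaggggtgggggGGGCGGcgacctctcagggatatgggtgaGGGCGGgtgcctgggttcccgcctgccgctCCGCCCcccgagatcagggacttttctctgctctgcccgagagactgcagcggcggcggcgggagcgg
COL17A1, chr10:104085831-104086130, minus strand: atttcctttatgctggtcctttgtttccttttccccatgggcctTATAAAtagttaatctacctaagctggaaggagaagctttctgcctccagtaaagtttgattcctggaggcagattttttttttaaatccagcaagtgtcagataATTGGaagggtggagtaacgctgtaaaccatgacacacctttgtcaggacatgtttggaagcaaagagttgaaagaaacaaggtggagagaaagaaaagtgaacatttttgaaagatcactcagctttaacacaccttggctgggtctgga

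COL12A1, which encodes a chain that decorates type I fibrils, had 290 of these 300 bases inside an H3K27ac region in NC and all 300 in PKM2-KD. COL13A1, a transmembrane collagen of cell adhesion sites, had 28 bases covered in NC and 300 in PKM2-KD. The COL4A2 sequence had 0 covered in NC and 214 in PKM2-KD, and it shares 226 bases with the promoter of COL4A1, whose start lies 127 bp away on the other strand. COL7A1, the chain of the anchoring fibrils of skin, had 1 base covered in NC and 87 in PKM2-KD. COL17A1, the hemidesmosome collagen, had 0 in both lists. The sequences differed in composition: COL4A2 had 45 CpG dinucleotides, COL12A1 29, COL13A1 22 and COL7A1 17, while COL17A1 had 1 and a GC content of 40.7%. Over 41 promoter entries of the 30 genes, the median GC content was 65.7% and the median CpG number 18, against 62.7% and 21 over all 21156 promoters. A TATA box match was found in 19.5% of the collagen entries and 9.51% of all promoters. The GC box was found in 56.1% and 56.6%, the CCAAT box in 29.3% and 34.4%, and the AP-1 motif in 2.44% and 6.08%, the collagen entry with AP-1 being one of COL10A1. A match describes these letters and does not show a bound factor.

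H3K27ac regions at the collagen genes numbered 1702 in NC and 701 after PKM2 knockdown, which is 41.2% of the NC number (95% exact interval 37.7 to 45.0). Over all genes the same ratio was 41.2%. Acetylated bp were 268408 in NC and 208561 in PKM2-KD (77.7%, against 78.5% over all genes). Wide regions went the other way, from 190 in the NC list to 243 (128%, interval 105 to 155; all genes 119%), and covered 87987 bp and 139386 bp (158%; all genes 142%). The direction of the summed change therefore depended on whether the narrowest regions were counted. COL13A1 alone held 18 of the wide regions in NC and 47 in PKM2-KD, with 15268 and 42171 of their bp. Sums without COL13A1 were not taken, so the order against all genes may rest on this gene. Acetylated bp per kb of window had a median over the 42 genes of 35.7 in NC and 19.3 in PKM2-KD, beside 37.3 and 27.1 over all genes. For wide regions the medians were 7.21 and 6.49 bp per kb, beside 10.6 and 16.2. Collagen windows were long, with a median of 143 kb beside 34.5 kb over all genes. All genes in windows of at least 50 kb had medians of 33.9 and 20.4 bp per kb over all regions. Their medians for wide regions were 9.79 and 12.4 bp per kb.

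A gene was called changed when its log2 ratio, log2((PKM2-KD bp + 100)/(NC bp + 100)), reached 2-fold and its mean was at least 500 bp. Over all regions, 41 collagen genes could be called (COL1A2 had a mean of 470 bp), and 20 were lower in PKM2-KD (48.8%, where 23.6% of all genes were) and 1 was higher, COL7A1 (7.1% of all genes were). Among windows of at least 50 kb, 16 of 31 collagen genes were lower beside 34.4% of all such genes, and 0 were higher beside 0.882%. Over wide regions, 28 could be called. COL4A3, COL25A1 and COL11A2 were lower (background 4.84%), and 9 were higher (background 29.2%): COL16A1, COL4A4, COL7A1, COL28A1, COL15A1, COL27A1, COL13A1, COL1A1 and COL18A1. In windows of at least 50 kb, wide regions gave 2 lower (background 7%) and 7 higher (background 19.1%) of 24. The median log2 ratio was -0.98 over all regions, where all genes had -0.26, and 0.39 over wide regions, where all genes had 0.53. In windows of at least 50 kb the medians were -1.05 beside -0.64 over all regions, and 0.39 beside 0.33 over wide regions. The order for wide regions thus depended on the length of the windows compared.

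**Figure D1:**
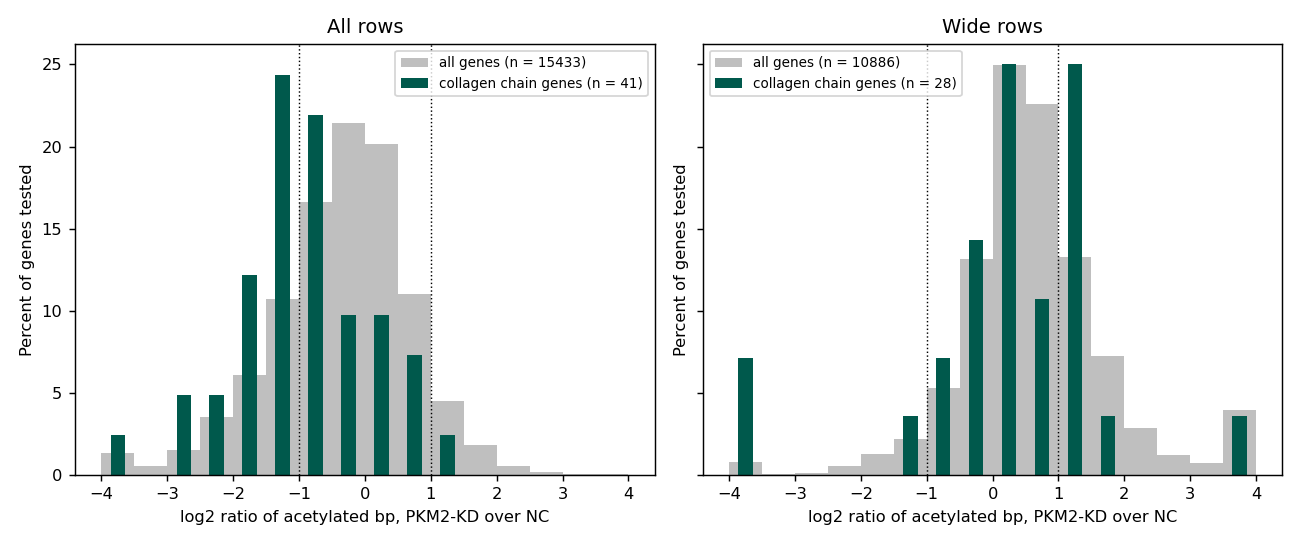
Distribution of the log2 ratio of acetylated bp, PKM2-KD over NC, in steps of 0.5 (horizontal axis), as percent of the genes tested (vertical axis), for collagen chain genes (green) and all genes (grey); values beyond 4 in size are drawn in the end bins and dotted lines mark 2-fold. The collagen genes lie mostly left of 0 over all regions (median -0.98) and mostly right of 0 over wide regions (median 0.39).

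Some genes kept 1 direction in each of the ways below, which all draw on the same NC and PKM2-KD lists. The ratio was taken in 7 ways: all regions, wide regions, regions with a −log10 q of at least 5, lists of equal length, bp scaled to the list total, and flanks of 1 kb or none. It was above 0 in all 7 for 8 genes (COL13A1, COL15A1, COL16A1, COL17A1, COL1A1, COL27A1, COL4A2 and COL7A1) and below 0 in all 7 for 11 (COL12A1, COL19A1, COL21A1, COL22A1, COL23A1, COL25A1, COL2A1, COL3A1, COL4A3, COL9A2 and COL9A3). For the other 23 the sign was mixed or the ratio was 0 in some. With regions within 1 kb of a gene end as an added way, 5 stayed higher (COL13A1, COL15A1, COL1A1, COL4A2 and COL7A1) and 6 lower (COL21A1, COL22A1, COL23A1, COL25A1, COL3A1 and COL9A2). These groups were formed after the values were seen, and the same count was not made over all genes. Some of these ratios came near 0. The highest was -0.014 at COL22A1, -0.033 at COL23A1 and -0.049 at COL21A1, and the lowest at COL4A2 was 0.042.

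**Figure D2:**
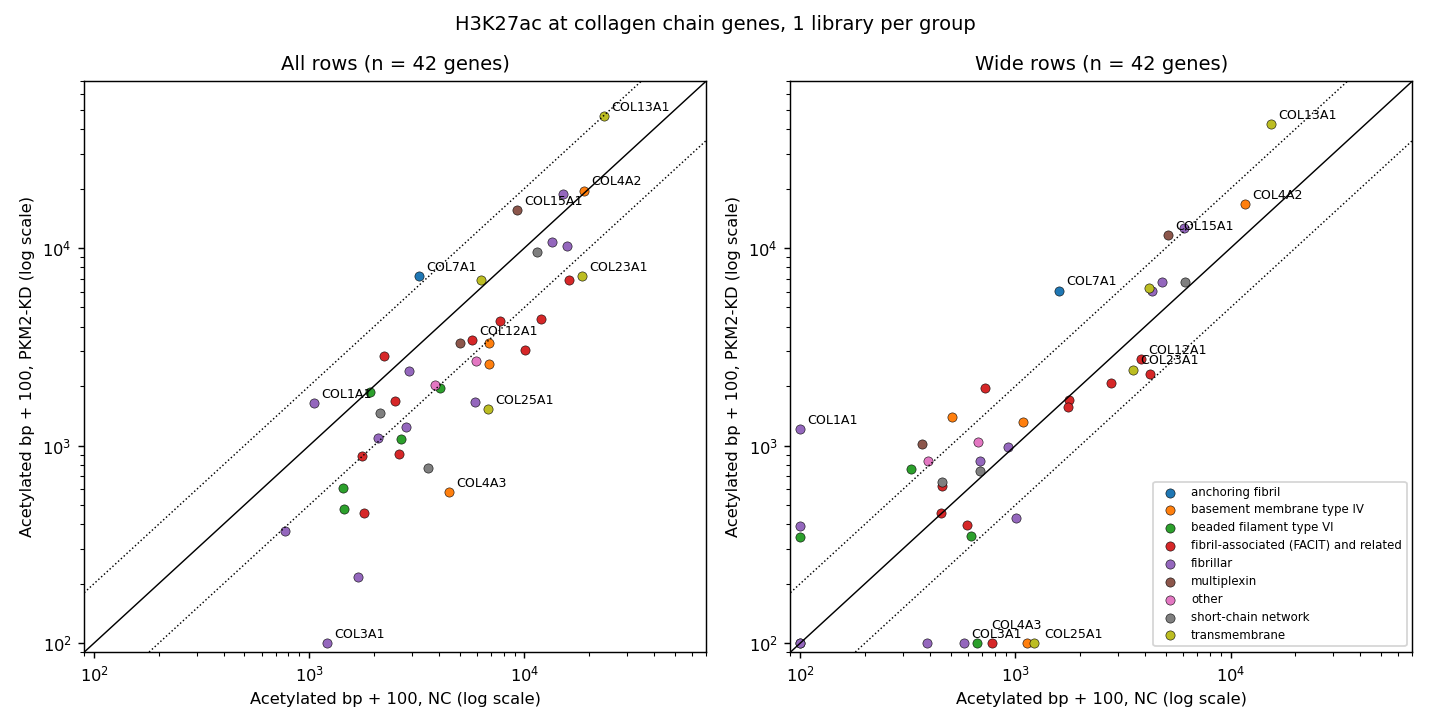
Acetylated bp plus 100 of each of the 42 collagen chain genes in NC (horizontal) and PKM2-KD (vertical), both on log axes, over all regions (left) and wide regions (right), with 1 point per gene colored by collagen type. The solid line is equality and the dotted lines are 2-fold. COL13A1 lies at the upper right of both panels and COL7A1 near or above the upper dotted line, while most other points lie below equality on the left.

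Among transmembrane collagens, COL13A1 (gene 1305, chr10:69801906-69959144) carried the most H3K27ac per kb of window of any collagen chain gene in both lists. It had 77 regions and 23425 bp in NC (140 bp per kb) and 76 regions and 46294 bp in PKM2-KD (277 bp per kb), a log2 ratio of 0.98. In wide regions it went from 15268 bp to 42171 bp, a log2 ratio of 1.46 and past 2-fold. Its ratio lay between 0.96 and 1.49 over the 7 ways. These levels were at the 95.9th and 97.9th percentile of all genes per kb. The lists thus differed at this gene in the width of regions and hardly in their number. Regions of at least 1 kb numbered 3 in NC and 11 in PKM2-KD, of 15 and 29 over all collagen genes.

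The widest H3K27ac region at any collagen gene was the same place in both lists. In NC it was chr10:69862872-69867372 (4501 bp, summit fold 28.6), 60966 bp inside COL13A1. In PKM2-KD it was chr10:69860998-69867521 (6524 bp, fold 42.6). Fold here is the deposited height of a summit relative to the local background of that library. A region with a still higher fold of 61.5 in PKM2-KD, chr10:69807084-69809105, lay 5178 bp past the start. Of the acetylated bp in wide NC regions of COL13A1, 90.8% were also in a wide PKM2-KD region, while over all collagen genes 52.6% were and over all genes 59.1%. The start of COL13A1 itself was covered by the 1106 bp region chr10:69801045-69802150 in PKM2-KD and by no wide region in NC. Whether such regions lie in exons or introns was not resolved, since no transcript models were used.

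COL13A1 also had the NONO region of highest fold of any collagen gene in NC, chr10:69866746-69867014 (fold 204), which lies inside the widest H3K27ac region. It had 13 NONO regions in NC and 4 in NONO-KD. Of the 13, 7 overlapped an H3K27ac region of NC and 10 one of PKM2-KD, and none of the 4 overlapped either. H3T11ph had 6 regions in each list. In NC, 1 of them lay on the start, chr10:69801905-69802066 (162 bp, fold 24.8), and no H3T11ph region of PKM2-KD was within 1 kb of it. In PKM2-KD the region of highest fold at this gene was chr10:69861631-69861734 (fold 56.1), inside the widest H3K27ac region. No H3T11ph region of COL13A1 overlapped one in the other list.

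**Figure D3:**
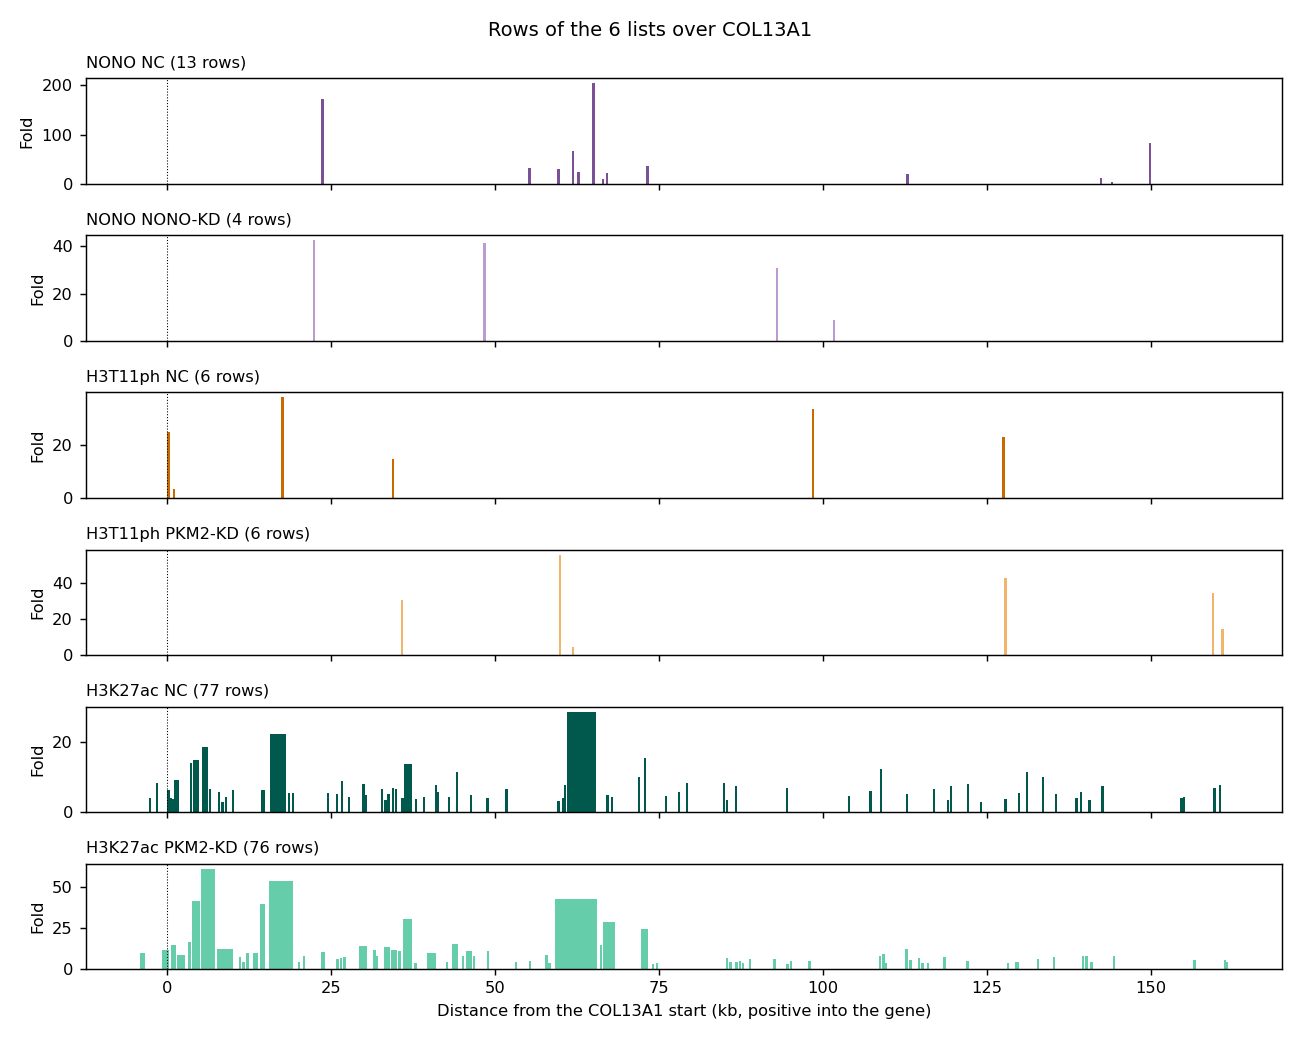
Regions of the 6 lists over COL13A1 by distance from its start in kb (horizontal axis), with the fold of each region as bar height (vertical axis, a scale of its own in each panel); bars span the region, and narrow ones are drawn at least 0.35 kb wide. H3K27ac regions crowd between the start and the block of the widest region in both lists, broader in PKM2-KD, and 7 of the 13 NONO regions of NC overlap an H3K27ac region of that library.

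The other transmembrane genes differed from COL13A1. COL17A1 (chr10:104031286-104085880) had 6182 bp in 25 regions in NC and 6810 bp in 14 regions in PKM2-KD, and 4058 and 6175 bp in wide regions. Its strongest region had a fold of 27.8 in NC and 67.5 in PKM2-KD and was inside the gene, 30429 bp and 29912 bp past the start. COL17A1 had 2 NONO regions in NC and 1 in NONO-KD, and 2 H3T11ph regions in NC and 0 in PKM2-KD. COL23A1 had 18457 bp in 140 regions in NC and 7089 bp in 42 in PKM2-KD (log2 ratio -1.37). Its wide regions covered 3421 and 2322 bp, with 0 bp in common. COL25A1, in the longest window of the 42 genes, had 6671 and 1422 bp (log2 ratio -2.15), and its 1114 bp of wide regions in NC had no counterpart in PKM2-KD. NONO regions numbered 9 in NC and 10 in NONO-KD at COL23A1, and 5 and 6 at COL25A1.

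Type IV collagen is encoded in head-to-head gene pairs. At COL4A1 and COL4A2, the chains of nearly all basement membranes, H3K27ac was found mainly over COL4A2. COL4A2 (gene 1284, chr13:110307284-110513209) had 18876 bp in NC and 19437 bp in PKM2-KD over all regions, and 11557 and 16524 bp over wide regions. COL4A1 (gene 1282, chr13:110148963-110307157) had 6736 and 3193 bp, and 989 and 1221 bp in wide regions. Per kb of window the wide bp in NC were 53.5 for COL4A2 and 5.88 for COL4A1. The regions of COL4A2 recurred: 76.9% of its wide bp in NC were wide in PKM2-KD too. They include chr13:110346593-110348432 (1840 bp, fold 22.5) in NC and chr13:110346555-110348438 (1884 bp, fold 16.8) in PKM2-KD, about the same bases. The widest was chr13:110407201-110410387 (3187 bp, fold 36.3) in PKM2-KD, where NC had chr13:110408652-110410067 (1416 bp, fold 10.1). In PKM2-KD a weak 430 bp region (fold 2.42) covered the COL4A1 start and ended before that of COL4A2. In NC a 112 bp region lay inside COL4A1, and none lay between the starts.

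The shared window of COL4A1 and COL4A2 held 1 H3T11ph region in NC, chr13:110308850-110308976 (fold 51.0), 1566 bp past the COL4A2 start. It was among the regions of highest fold of that list at collagen genes and was not found in PKM2-KD. NONO had 4 regions at each of the pair in NC, and 2 at COL4A1 and 1 at COL4A2 in NONO-KD. The other pair, COL4A3 and COL4A4, builds the basement membrane of the kidney glomerulus. In NC these genes had 27.4 and 32.6 acetylated bp per kb of window. The median was 33.9 over all genes in windows of at least 50 kb. COL4A4 had about as many acetylated bp in NC as COL4A1 (6757 and 6736). In PKM2-KD both genes of this pair lay further below the median, which was 20.4 bp per kb. COL4A3 went from 33 regions and 4384 bp to 3 regions and 480 bp (log2 ratio -2.95), with 1032 bp and 0 bp in wide regions. COL4A4 had 6757 and 2488 bp, but 407 and 1288 bp in wide regions, so it was called lower over all regions and higher over wide ones. H3T11ph had no region at either in NC. In PKM2-KD each had 2, with 1 region in common that was within 1 kb of both starts.

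**Figure D4:**
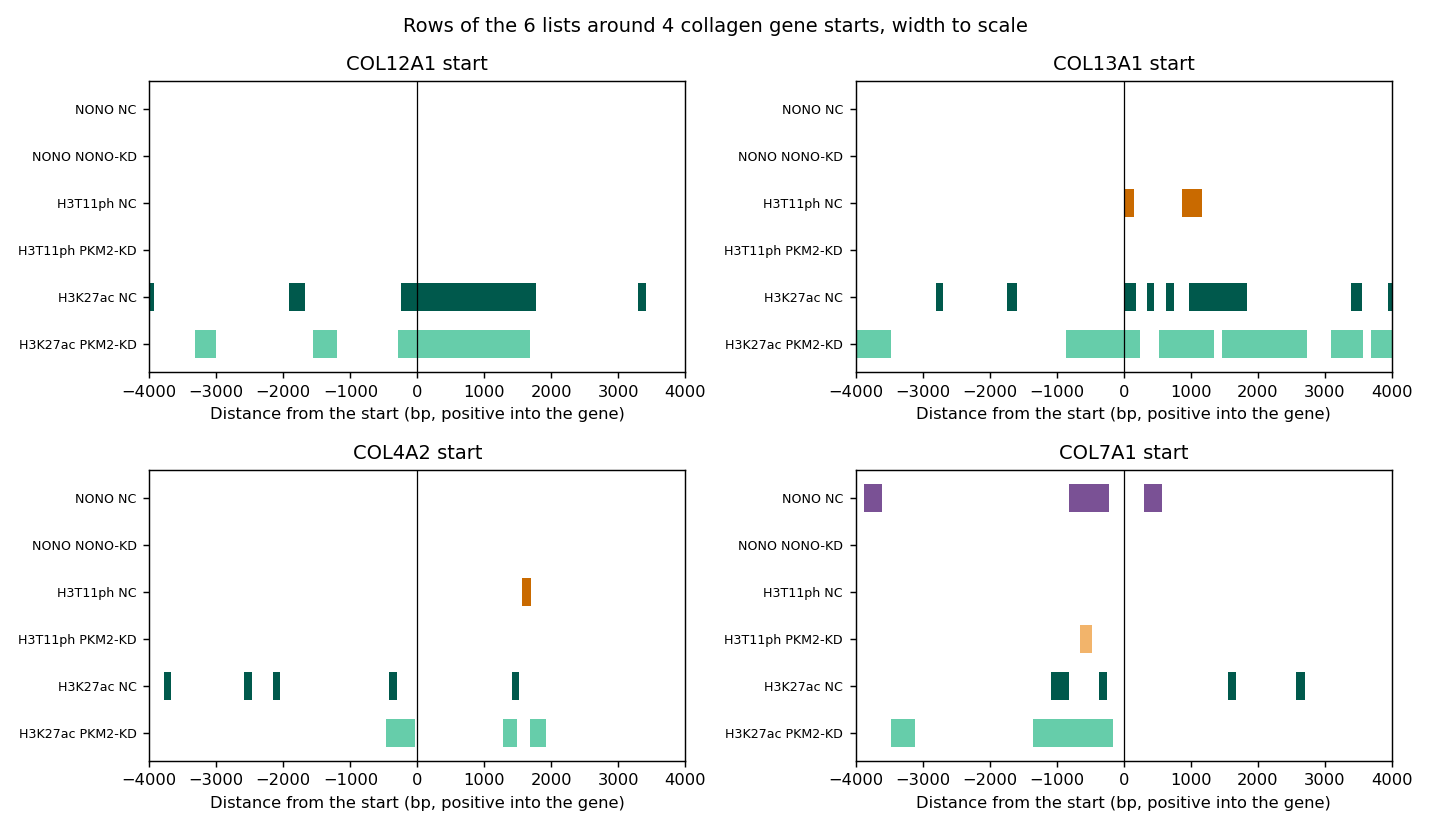
Regions of the 6 lists within 4000 bp of the starts of COL12A1, COL13A1, COL4A2 and COL7A1, with distance from the start in bp on the horizontal axis, 1 row per library on the vertical axis, and bar width to scale. COL12A1 has a broad H3K27ac region over its start in both lists, COL13A1 an H3T11ph region in NC and a broad H3K27ac region in PKM2-KD, and COL7A1 NONO regions in NC.

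COL7A1 (gene 1294, chr3:48564073-48595329) was the gene called higher over both all and wide regions. It had 18 H3K27ac regions and 3134 bp in NC and 16 regions and 7096 bp in PKM2-KD (log2 ratio 1.15), and 1486 and 5989 bp in wide regions (log2 ratio 1.94). Its window also holds parts of PFKFB4, UCN2 and UQCRC1. Wide regions near an end of these genes covered 971 bp in NC and 3179 bp in PKM2-KD, and the wide regions elsewhere in the window 515 and 2810 bp. Over the gene span alone it had 1917 and 3716 bp (log2 ratio 0.92, short of 2-fold). Within 1 kb of its start 291 bp were acetylated in NC and 837 bp in PKM2-KD, the latter in chr3:48595493-48596680 (1188 bp, fold 19.1).

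NONO had 4 regions at COL7A1 in NC and 0 in NONO-KD. The widest of these, chr3:48595546-48596138 (593 bp, fold 60.3), was 217 bp before the start, and another (fold 53.6) was 303 bp past it. COL7A1 and COL1A1 were the collagen genes with NONO in NC and none in NONO-KD. H3T11ph was the other way round, absent from the NC list and present as 2 regions after PKM2 knockdown. One of these 2, chr3:48595803-48595972 (fold 38.2), lay 474 bp before the start, inside the NONO region of NC and the H3K27ac region of PKM2-KD.

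The fibrillar genes as a group had 61648 bp in NC and 47366 bp in PKM2-KD, and 17909 and 28383 bp in wide regions. Type I, II and III genes had 6 to 12 H3K27ac regions each in NC and 0 to 7 in PKM2-KD. COL1A1 (gene 1277, chr17:50184101-50201631) had 957 and 1533 bp, with 0 bp wide in NC and 1111 bp in PKM2-KD, in 4 regions with folds of at most 6.36. COL1A2 (gene 1278, chr7:94394895-94431227) had 672 and 268 bp and no wide region. COL3A1 (gene 1281, chr2:188974373-189012746), the type III chain, had 8 regions and 1114 bp in NC (476 bp wide) and none in PKM2-KD. It was the collagen gene with H3K27ac in NC alone (2.38% of collagen genes, beside 8.22% of all genes). COL2A1, the cartilage collagen, had 1584 and 116 bp, and 287 and 0 bp wide. Windows of these genes are short, and per kb of window in NC COL2A1 had 36.6 bp and COL1A1 34.8 bp, beside the median of 37.3 bp over all genes, while COL3A1 and COL1A2 had less, with 14.5 bp at COL1A2. In PKM2-KD COL1A1 had 55.7 bp per kb, above the median of 27.1 bp. NONO regions numbered 2 in NC and 0 in NONO-KD at COL1A1, 0 and 1 at COL1A2, 1 and 1 at COL3A1, and 0 in both at COL2A1. H3T11ph had 1 region in each list at COL1A1, 1 in NC at COL2A1, and none at COL1A2 or COL3A1.

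COL5A1, COL5A2 and COL27A1 had the most acetylated bp of the fibrillar genes in both lists. Per kb of window in NC, COL27A1 had 89.1 bp, and COL11A2 with 68.7 bp stood above COL5A1 with 62.3, COL5A2 with 37.5 and COL5A3 with 32.8 bp. COL5A1 and COL5A2 encode chains that set the diameter of type I fibrils. COL5A2 had 15714 and 10141 bp (4679 and 6592 bp wide) and COL5A1 had 13267 and 10575 bp (4203 and 5981 bp wide). COL27A1, a cartilage fibril chain, had 15008 and 18753 bp (5951 and 12463 bp wide), and was past 2-fold over wide regions alone. COL5A1 held the most NONO regions of any collagen gene in both lists, 18 in NC and 13 in NONO-KD, and 6 and 11 of H3T11ph, the latter the most in its list. These counts are not per kb. The COL5A1 window was 213 kb, while COL9A3 had 12 NONO regions in NC and 1 in NONO-KD in a window of 34.9 kb. COL5A2 held the most H3T11ph regions in NC, 8, and 4 in PKM2-KD. COL5A3 had the H3T11ph region of highest fold in PKM2-KD, chr19:9991237-9991416 (fold 87.7).

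COL12A1 (gene 1303, chr6:75084326-75206053) had 1241 acetylated bp within 1 kb of its start in NC, the most of the 30 genes with a start entry, and 1285 bp in PKM2-KD, where COL13A1 had 1580 bp. The region was chr6:75204283-75206293 (2011 bp, fold 26.8) in NC and chr6:75204371-75206337 (1967 bp, fold 22.5) in PKM2-KD, with the start inside it in both. The gene as a whole had 5628 and 3316 bp (log2 ratio -0.75), and 3736 and 2643 bp wide. NONO and H3T11ph had no region within 1 kb of this start. COL12A1 had 1 NONO region in NC and 2 in NONO-KD, and 2 H3T11ph regions in NC, with folds of up to 51.0, and 1 in PKM2-KD. The 10 fibril-associated genes, COL12A1 included, had 16339 bp in wide regions in NC and 12918 bp in PKM2-KD. COL22A1, of muscle-tendon junctions, had 16050 and 6786 bp, with 13 and 8 wide regions of 4108 and 2211 bp. COL19A1 had 11905 and 4255 bp (2680 and 1966 bp wide). Both were called lower over all regions and not over wide ones. COL22A1 had 7 NONO regions in NC and 12 in NONO-KD, with a fold of up to 140 in NONO-KD, and 6 and 9 of H3T11ph. COL21A1 had 11 and 3 NONO regions, 1 with a fold of 194 in NC. The H3T11ph region of second highest fold in PKM2-KD was at COL14A1 (fold 74.0).

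The multiplexins, which carry anti-angiogenic fragments at their C-terminal ends, went from 14026 to 18573 bp, and from 5264 to 12392 bp wide. COL15A1 (gene 1306, chr9:98943907-99070787) had 9124 and 15387 bp (log2 ratio 0.75) and 4996 and 11469 bp wide, past 2-fold, with regions of at least 1 kb numbering 1 in NC and 4 in PKM2-KD. The single NC region, chr9:99050142-99051155, lay inside chr9:99049814-99051376 of PKM2-KD. COL18A1, the source of endostatin, had 4902 and 3186 bp, and 268 and 923 bp wide. It had 16 NONO regions in NC and 3 in NONO-KD. One region, chr21:45500414-45501056 in NC, overlapped one in NONO-KD and an H3T11ph region of PKM2-KD. The COL18A1 window also overlaps SLC19A1.

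The type VI genes, encoding the beaded filaments of the pericellular matrix, had 2.64 wide bp per kb in NC and 2.31 in PKM2-KD, near or below the pair COL26A1 and COL28A1 (2.04 and 3.97) and under every other class. COL6A3 (chr2:237324018-237414164) had 1335 and 508 bp and no wide region in either list. COL6A1 had 1826 and 1760 bp (227 and 658 bp wide), and COL6A2 had 1350 and 375 bp (566 and 0 bp wide). The genes of this class differed per kb of window over all regions. COL6A1 had 54.9 bp in NC and 52.9 bp in PKM2-KD, above the medians of 37.3 and 27.1 bp over all genes. COL6A2 had 30.2 and 8.38 bp and COL6A3 13.3 and 5.07 bp, below them. In wide regions COL6A1 had 6.82 and 19.8 bp per kb and COL6A2 12.7 and 0. NONO regions numbered 2 in NC at each of COL6A1, COL6A2 and COL6A3, with 1, 1 and 2 in NONO-KD. H3T11ph regions numbered 1, 2 and 1 in NC and 0, 1 and 1 in PKM2-KD. Of the short-chain collagens, COL8A1, of vessel walls and cornea, had 11361 and 9425 bp (6028 and 6660 bp wide), with 69.6% of its wide bp in NC wide in PKM2-KD too. It has no start entry, and within 1 kb of its gene ends it had 1258 and 970 bp. COL10A1, of hypertrophic cartilage, had 3476 and 669 bp (log2 ratio -2.22), but 356 and 556 bp wide (log2 ratio 0.52). COL26A1 had 5850 and 2566 bp, but 570 and 939 bp wide, and a NONO region in NC with a fold of 160.

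NONO regions at the 42 genes numbered 235 in NC and 121 in NONO-KD, 51.5% (interval 41.0 to 64.4), beside 42.6% over all genes. Wide NONO regions numbered 5 and 8, but the minimum width was 269 bp in NC and 98 bp in NONO-KD. These 2 numbers therefore count regions from unlike widths upward. Of the 42 genes, 37 had NONO in both lists (88.1%, beside 45.6% of all genes) and COL2A1 in neither (2.38%, beside 15.2%). Collagen windows are longer than most, and longer windows hold more regions. NC alone had 2, COL7A1 and COL1A1 (4.76%, beside 32.4% of all genes), and NONO-KD alone had 2, COL9A2 and COL1A2 (4.76%, beside 6.76%). Among the 31 collagen genes in windows of at least 50 kb these numbers were 0 and 0, beside 21.3% and 3.78% of such genes. All 31 had NONO in both lists, beside 72.0% of such genes. The places seldom matched: 2 of the 235 NC regions (0.851%, interval 0.103 to 3.04) overlapped a region in NONO-KD, beside 1.91% over all genes. These 2 lay at COL18A1 and COL23A1.

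H3T11ph regions numbered 96 in NC and 93 in PKM2-KD (96.9%, interval 72.0 to 130; all genes 90.8%). Both lists had few regions at the minimum width (1.83% and 1.42%), but this width was 111 bp in NC and 91 bp in PKM2-KD. NC alone held 6 genes (COL11A2, COL9A1, COL26A1, COL17A1, COL2A1 and COL6A1), 14.3% beside 19.4% of all genes. PKM2-KD alone held 6 (COL8A2, COL9A2, COL4A4, COL4A3, COL7A1 and COL6A6), beside 15.8%. In windows of at least 50 kb both numbers were 3 of 31, beside 16.5% and 13.1%. COL3A1, COL10A1 and COL1A2 had none in either list (7.14%, beside 26.6% of all genes). The regions themselves were mostly different ones, with 4 of the 96 (4.17%, interval 1.15 to 10.3; all genes 6.19%) overlapping a region in PKM2-KD, at COL21A1, COL6A2, COL8A1 and COL9A3.

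**Figure D5:**
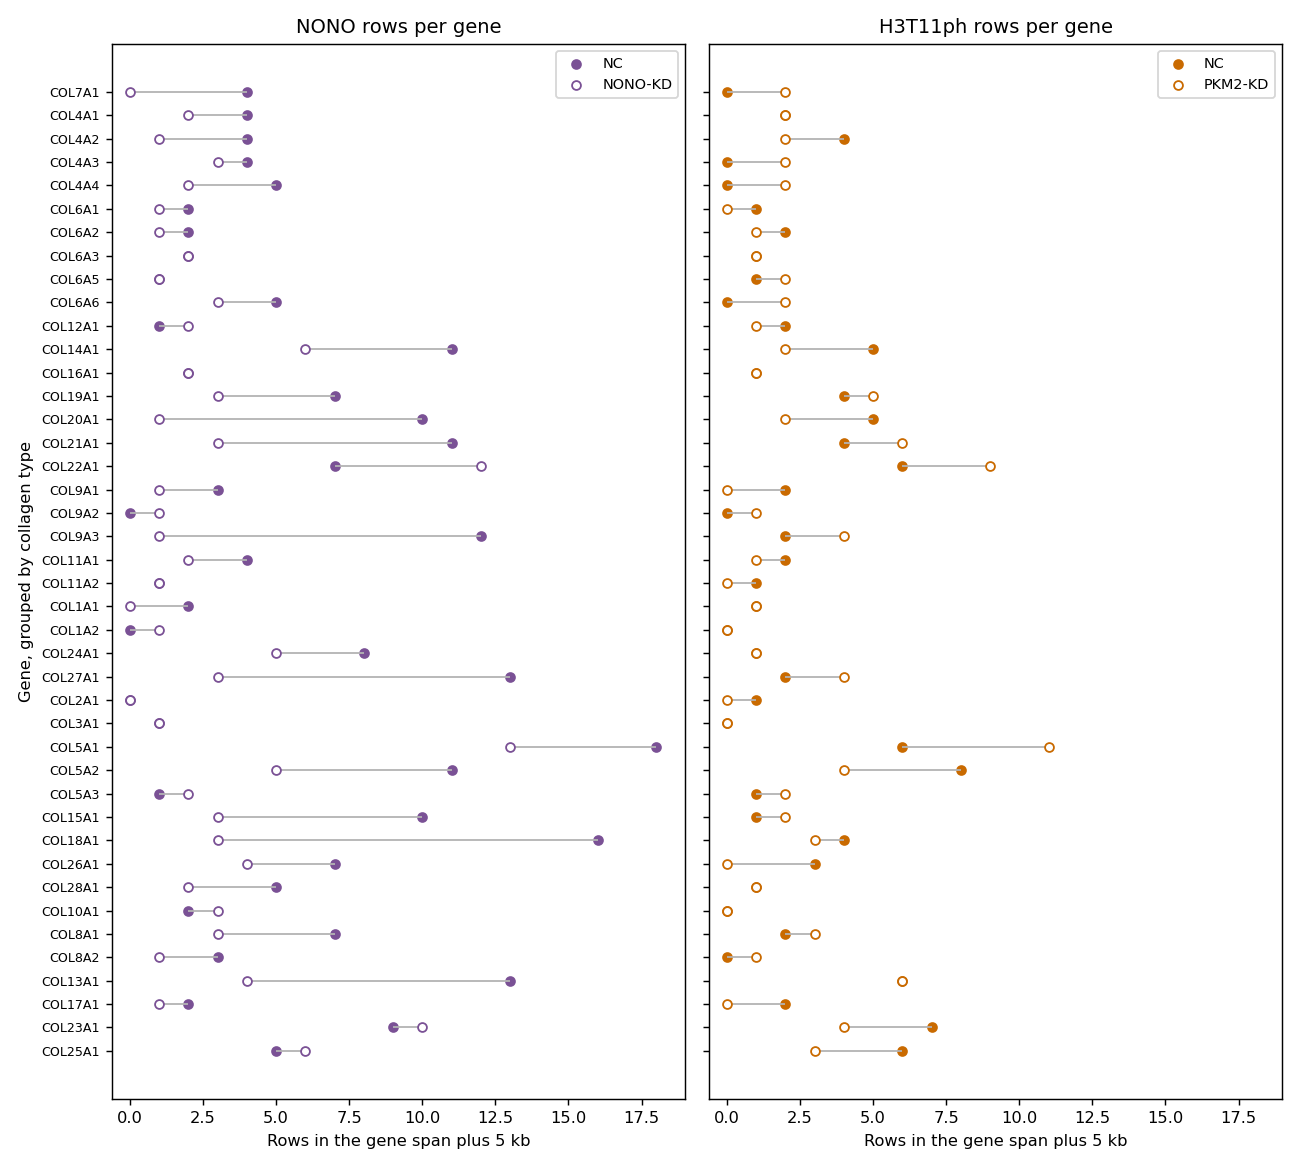
Number of NONO regions (left) and H3T11ph regions (right) in the window of each of the 42 collagen chain genes (horizontal axis), with filled circles for NC and open circles for the knockdown and genes grouped by collagen type; where both numbers are equal the open circle hides the filled one. COL5A1 has the most NONO regions in both lists, and COL18A1 has 16 in NC and 3 in NONO-KD.

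The study asked how NONO and both histone marks act together in transcription, and here the overlap of their regions was counted. In NC, 4 of the 235 NONO regions at collagen genes overlapped H3T11ph (1.70%, interval 0.466 to 4.30; all genes 3.06%), at COL23A1, COL27A1, COL5A1 and COL9A3. H3K27ac was overlapped by 44 NONO regions (18.7%, interval 13.9 to 24.3; all genes 19.4%), 7 of them at COL13A1, and by 15 H3T11ph regions (15.6%, interval 9.02 to 24.5; all genes 22.8%). In PKM2-KD, 16 of the 93 H3T11ph regions overlapped H3K27ac (17.2%, interval 10.2 to 26.4; all genes 29.0%). Of the H3K27ac regions of NC, 14.1% (interval 12.5 to 15.8) overlapped one in PKM2-KD, beside 16.0% over all genes. For wide regions it was 38.9% (interval 32.0 to 46.3), beside 49.5%.

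An H3K27ac region of any width lay within 1 kb of a start for 18 of the 30 genes with a known start in NC (60%, beside 71.1% of 15101 genes) and for 13 in PKM2-KD (43.3%, beside 63.7%). Wide regions went the other way. A wide H3K27ac region lay within 1 kb of a start in NC for 6 of the 30 (20%, beside 40.6%): COL12A1, COL13A1, COL25A1, COL27A1, COL7A1 and COL9A2. In PKM2-KD it did for 9 (30%, beside 51.8%): COL12A1, COL13A1, COL21A1, COL27A1, COL4A1, COL4A2, COL5A1, COL7A1 and COL9A1. Most wide regions were far inside the gene, 122 of 146 in NC and 167 of 192 in PKM2-KD being over 10 kb from a start where one was known. NONO lay within 1 kb of a start at COL21A1, COL6A2 and COL7A1 in NC (3 of 30, beside 22.8%) and at COL16A1, COL27A1 and COL9A1 in NONO-KD (3 of 30, beside 7.71%). The NONO-KD region at COL27A1 had a fold of 115. H3T11ph did so at COL13A1 and COL9A1 in NC (2 of 30, beside 16.6%) and at COL4A3, COL4A4 and COL7A1 in PKM2-KD (3 of 30, beside 16.8%).

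Genes that process collagen were measured in the same way. Of 18 genes for chain modification and folding, all could be called over all regions, 2 higher and 2 lower, beside 7.1% and 23.6% of all genes. SERPINH1, the collagen chaperone HSP47, had 2621 bp in NC and 5464 bp in PKM2-KD (1402 and 4963 bp wide), and COLGALT1, a collagen galactosyltransferase, 1124 and 4476 bp (363 and 3976 bp wide). P4HA3 had 2723 and 914 bp (891 and 296 bp wide) and P3H3 708 and 304 bp with none wide. Over wide regions 6 of 15 were higher and 4 lower, beside 29.2% and 4.84% of all genes. The lower ones were P4HA3, PLOD1, P3H4 and FKBP10. PLOD1 had 757 and 294 wide bp, and P3H4 and FKBP10 each had the same 747 and 291. Whether P3H4 and FKBP10 share these regions was not checked, so they may not count as separate places. P3H2, a prolyl 3-hydroxylase, had 17570 and 16849 bp, and 11791 and 12885 bp wide. PLOD2, a lysyl hydroxylase, had 7208 and 6060 bp, and 4511 and 5512 bp wide. COLGALT2 had 4015 and 2422 bp, but 723 and 1878 bp wide, where it was called higher. Of 13 genes for propeptide cleavage and cross-linking, 3 were lower (TLL1, ADAMTS3 and PCOLCE2) and 0 higher, beside 23.6% and 7.1% of all genes. Over wide regions 0 of 8 were lower and 4 higher, beside 4.84% and 29.2%. Wide bp were 305 and 0 at TLL1, 0 and 613 at ADAMTS3, and 0 in both lists at PCOLCE2. LOXL2, a lysyl oxidase, had the most with 17726 and 30686 bp (12961 and 28070 bp wide), followed by ADAMTS2 with 11369 and 5720 bp (3167 and 2860 bp wide). LOXL1 had 3787 and 6939 bp (2090 and 5963 bp wide) and LOXL4 4141 and 4175 bp (2080 and 3622 bp wide).

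Of the 10 collagen receptors, LAIR1 and GP6, receptors of leukocytes and platelets, were lower (1135 to 127 bp and 1134 to 422 bp) and 0 were higher, beside 23.6% and 7.1% of all genes. Both had wide regions in NC alone, of 565 and 350 bp. Over wide regions 0 of 8 were lower and 1, ITGA10, was higher, beside 4.84% and 29.2%. By the mean of both lists the integrin genes ITGA2, ITGA11, ITGB1 and ITGA1 had the most, with 12952, 8973, 7725 and 7440 bp in NC and 14608, 9992, 7506 and 5632 bp in PKM2-KD. Their wide bp were 9506, 5086, 5385 and 3333 in NC and 13611, 6610, 6420 and 4026 in PKM2-KD. Of the 6 collagenases, MMP14 and MMP2 could be called, and neither was past 2-fold over all regions. MMP14, the membrane-bound collagenase, had 3823 and 7290 bp, and 2942 and 6620 bp wide, where it was past 2-fold. MMP2 had 1309 and 944 bp with none wide. MMP1 had 417 and 475 bp and MMP13 479 and 287 bp, and their wide bp were 0 in NC and 325 and 287 in PKM2-KD.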

How the data were processed

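CUT&Tag libraries of MDA-MB-231 cells were sequenced on an Illumina instrument. The authors deposited 1 peak list per library, each called on that library alone. Per the submitters' processing notes, cutadapt 1.18, FastQC 0.11.9, SAMtools 1.3.1 and MACS2 2.1.1.20160309 were used with the build hg38; DESeq2 is named there without a role. The aligner, any control library and the handling of duplicates are not given in the sources used here. In the deposited lists the score ranks the peaks, the fold is the ratio of the summit to the background of that library, and p and q are −log10 values, with every q at or under about 0.05. No read totals are in these lists, so the depth is unknown and intervals (95%, exact Clopper-Pearson) cover counting error only.

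Groups were taken from the titles, with 1 library each, and no test between conditions was made. Regions were assigned to a gene where they overlapped its RefSeq span plus 5 kb by at least 1 bp. Regions in the windows of a pair of genes counted for both and once in sums. Starts came from the RefSeq promoter table. Counting code was checked on simulated data. Python 3.11.15, numpy 2.4.6, pandas 2.3.3, scipy 1.17.1 and matplotlib 3.10.9 were used. Genes named were the major chains of types I, III, IV, V, VI, VII, XII, XVII and XVIII, the 10 with the highest mean acetylated bp, the 5 with the largest ratio in each direction, the 3 with the most regions and the 3 with the highest fold in each NONO and H3T11ph list, those of each related list with the highest mean (4) or past 2-fold (up to 4), and others where a count was spelled out. The members and lists were chosen with earlier results of these data known. Alternatives covered the q threshold, region width, flank, gene ends, list length, scaling, filter, pseudocount and overlap.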

Additional observations from a re-analysis of the deposited data

How the results depend on the processing

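No paired analysis was possible because every group is a single library, which also leaves no replicate to leave out. Of the values recomputed under the alternatives, 57 kept their direction and stayed within their interval, within 5% for acetylated bp, or within 1.5 times for counts, 42 moved and 10 reversed. The reversals show that the summed direction of these lists cannot be read without naming the regions used; the cause was not tested. The acetylated bp in PKM2-KD, 77.7% of NC, became 158% over wide regions, 148% with a −log10 q of at least 5, 154% with equal list lengths and 111% scaled to list totals, and 88.5% within 1 kb of a gene end. The number of H3K27ac regions, 41.2% of NC, became 128% over wide regions, 108% with equal lengths and 94.4% with the stricter q. NONO regions, 51.5%, became 112% with equal lengths and 66.7% near gene ends (12 regions in NC). Over wide regions the ratio was 160% (5 regions in NC), but at unlike widths. The minimum width was 269 bp in NC and 98 bp in NONO-KD. H3T11ph regions, 96.9%, became 110% with the stricter q, 116% with equal lengths and 60% near gene ends (5 regions in NC).

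With the stricter q, 2 of 35 genes were 2-fold lower and 7 higher, and with equal lengths 2 and 6 of 36. With scaling these numbers were 10 and 4 of 42, and over wide regions 3 and 9 of 28. Near gene ends only 5 genes could be called, with 0 lower and 1 higher. Apart from wide regions, shares over all genes were not taken under these alternatives. H3K27ac regions of NC found again, 14.1%, were 20.7% with the stricter q, 22.2% with equal lengths, 38.9% over wide regions, 26.5% near gene ends and 11.2% with an overlap of at least 50%. For H3T11ph this share was 0 of 8 wide regions and 0 of 5 near gene ends. For NONO it was 20% of 5 wide regions and 0 of 12 near gene ends. Shares of so few regions have wide intervals. NONO overlap with H3K27ac in NC, 18.7%, was 8.72% with the stricter q, 2.83% with equal lengths and 6.81% at 50% overlap. Near gene ends it was 50% of 12 regions. H3T11ph overlap with H3K27ac, 15.6%, was 7.41% with the stricter q and 4.17% with equal lengths. It was 25% of 8 wide regions and 40% of 5 near gene ends. NONO overlap with H3T11ph was 0 at 50% overlap, over the 5 wide regions and over the 12 near gene ends. Genes with NONO in NC alone were 4 with the gene span alone and 6 near gene ends, and in NONO-KD alone 4 with equal lengths, 4 over wide regions, 7 near gene ends, and 1 with a flank of 1 kb or none. Genes with H3T11ph over wide regions were 3 in NC alone and 2 in PKM2-KD alone, at unlike minimum widths of 111 bp and 91 bp. For these numbers of genes in 1 list alone, shares over all genes were not taken under the alternatives.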

Other observations

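COL4A5 and COL4A6, the type IV chains encoded head to head on chromosome X, were outside the rule and were counted in the same way. COL4A6 had 31 H3K27ac regions and 4260 bp in NC and 12 regions and 1819 bp in PKM2-KD, with 1035 and 339 bp in wide regions. COL4A5 had 27 regions and 3222 bp in NC and 2 regions and 273 bp in PKM2-KD, with 310 and 0 bp in wide regions. NONO had 0 regions at COL4A6 in NC and 1 in NONO-KD, and 2 and 1 at COL4A5. H3T11ph had 2 regions in NC and 0 in PKM2-KD at each gene. No other observation is added.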
